A study of Homo sapiens with 6 samples.

Results

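Regions of H3K4me2 whose highest point stayed within 25 bp in all 3 conditions of the study are described here, and are called fixed-summit regions. H3K4me2 (dimethylated lysine 4 of histone H3) was profiled with ChIP-seq in LNCaP, a prostate cancer cell line that responds to androgen. Cells were kept in medium with 5% charcoal-stripped serum, which is depleted of hormones, for 3 days. The 6 samples form 3 groups of 2 replicates: vehicle without GSK, GSK2879552 for 4 h (GSK 4 h) and GSK2879552 for 24 h (GSK 24 h). The treatment label of both GSK groups also names DHT, the androgen dihydrotestosterone, whereas the treatment protocol names GSK2879552 alone, so DHT and the inhibitor cannot be told apart in any comparison with vehicle. Per the series' design text each list was generated from both replicates of its group, by a step that is not given, so the spread between replicates is unknown and no difference between conditions was tested. All 3 lists come from 1 established cell line.

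The records of the 3 lists on chromosomes 1 to 22 were merged into 147111 union regions, of which 70797 (48.1%) lay in all 3 lists. Exactly 1 record of each list was held by 52329 of them. In 51206 of these the vehicle record was shorter than 1500 bp, and these are called matched regions. The 3 summits, each the base that the peak caller marked as highest, all lay within 25 bp of each other in 2618 matched regions (5.11% of the matched and 1.78% of the union regions). The remaining 48588 matched regions serve as the comparison. The fixed-summit regions made up 2.69% of the vehicle records, 2.11% of the GSK 4 h records and 2.12% of the GSK 24 h records on these chromosomes. The members were chosen by the summit positions of these same lists and the length of the vehicle record, so the closeness of the summits is the rule itself and not a result.

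Dimethylation of H3K4 marks nucleosomes at active and poised promoters and enhancers, where it flanks the open site at which transcription factors bind. LSD1 (KDM1A) is a demethylase that removes methyl groups from mono- and dimethylated H3K4, and GSK2879552 inhibits it. In prostate cancer cells LSD1 is known both as a corepressor and as a coactivator of the androgen receptor.

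The summits of matched regions usually lay much farther apart than the limit. Over all matched regions the largest distance between the 3 summits had a median of 140 bp, with quartiles of 74 and 264 bp. In the fixed-summit regions the median was 17 bp, with quartiles of 11 and 21 bp. Each pair of lists had summits within 25 bp in about the same share of matched regions: 19.9% for GSK 4 h and vehicle, 21.5% for GSK 24 h and vehicle, and 19.4% for GSK 24 h and GSK 4 h. The signed distances in the fixed-summit regions are capped at 25 bp by the rule, and their medians are given as a description. The median signed distance was -1 bp from vehicle to GSK 4 h, 0 bp from vehicle to GSK 24 h and 0 bp from GSK 4 h to GSK 24 h. The summit was at the very same base in the vehicle and GSK 24 h lists in 91 regions, in the vehicle and GSK 4 h lists in 75 and in both GSK lists in 99.

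The limit of 25 bp cut through a smooth distribution. At a distance of exactly 25 bp there were 175 regions, with median heights (defined below) of 15.8 in vehicle, 20.7 at GSK 4 h and 18.8 at GSK 24 h. At 26 bp there were 150 regions, with medians of 14.2, 17.8 and 17.3. At 24 bp the medians were 14.4, 17.8 and 16.8, and at 27 bp they were 16.3, 18.9 and 17.8. The medians thus varied between neighbouring distances, with no clear step at the limit. The count per bp of distance went on rising beyond it, as the plot of regions by summit distance shows.

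**Figure D1:**
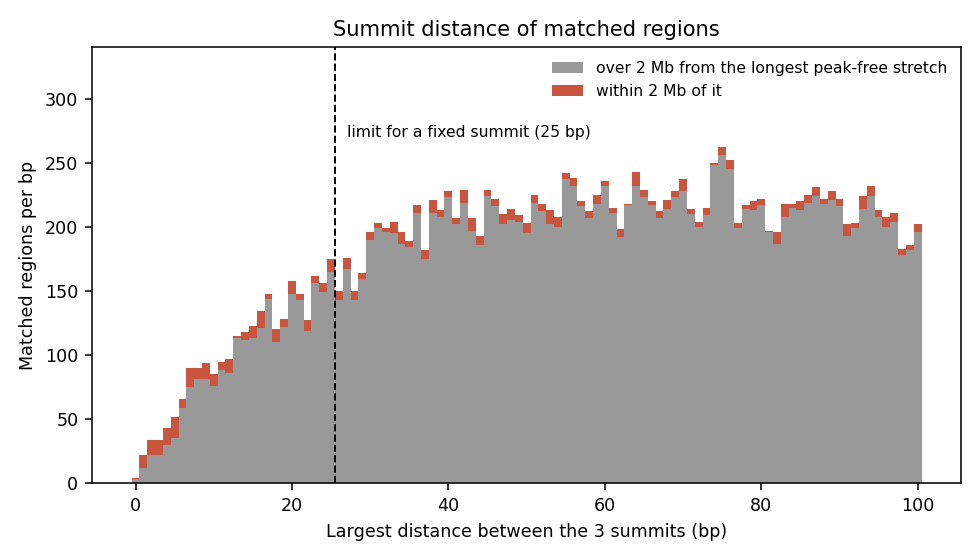
Number of matched regions (vertical axis) at each largest distance between the 3 summits (horizontal axis, bp), with regions within 2 Mb of the longest peak-free stretch of their chromosome in red and all others in grey. Counts rise steadily through the 25 bp limit, and the red share is largest at the left end, where 34.4% of the regions with summits within 5 bp are red.

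In 4 fixed-summit regions the summits of all 3 lists fell on the same base. Positions are given in hg19 as the span of the vehicle record, and a pileup is the number of fragments over the summit, with an exact Poisson 95% interval that covers counting error only. At chr12:108908209-108908813 the shared summit was base 108908622, and the pileup was 59 (44.9 to 76.1) in vehicle, 64 (49.3 to 81.7) at GSK 4 h and 82 (65.2 to 101.8) at GSK 24 h. At chr8:54933378-54934127 the shared summit was base 54933603, with pileups of 62 (47.5 to 79.5), 46 (33.7 to 61.4) and 54 (40.6 to 70.5). At chr12:63283676-63284363 the shared summit was base 63284097, with pileups of 42 (30.3 to 56.8), 36 (25.2 to 49.8) and 41 (29.4 to 55.6). The fourth, chr8:42699112-42699366, had its summit at base 42699277 in each list, with pileups of 40 (28.6 to 54.5), 62 (47.5 to 79.5) and 43 (31.1 to 57.9). The intervals of the 3 lists overlapped in each of these 4 regions, but they are of pileups not scaled for depth, and overlap does not show equal values. In the fourth region the height (defined below) was 1.72-fold higher at GSK 4 h than in vehicle. The others stayed within 1.5-fold of vehicle in both GSK lists.

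Height is given here as the summit pileup over that list's genome-wide background, which puts lists of different depth on 1 scale. The depth inferred from the peak values was 9.43 tags per kb for vehicle, 10.1 for GSK 4 h and 8.98 for GSK 24 h, and the shortest record, taken as the fragment length, was 221, 186 and 219 bp. The fixed-summit regions stood taller than the other matched regions in each list. Their median height was 15.4 in vehicle, 18.6 at GSK 4 h and 17.8 at GSK 24 h, against 12, 14.9 and 13.7 for the others. In fragments, the median pileup was 32 in vehicle, 35 at GSK 4 h and 35 at GSK 24 h, against 25, 28 and 27. The part of these higher pileups in the summits being fixed was not tested.

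The fixed-summit regions were also shorter and more nearly symmetric. Summits lie within their records, so record length and edges are not independent of the rule on summit distance. Their median length was 467 bp in vehicle, 499 bp at GSK 4 h and 556.5 bp at GSK 24 h, whereas the other matched regions measured 550, 619 and 646 bp. The summit lay off the centre of the record by a median of 8.73% of its length in vehicle, 9.84% at GSK 4 h and 9.78% at GSK 24 h, against 12.1%, 12.9% and 12.8% in the others. The edges of the records moved less as well. At GSK 24 h the start lay a median of 47 bp and the end 51 bp from its vehicle position, against 74 and 75 bp in the other matched regions. Records were longer than in vehicle at 24 h about as often in both sets, in 64.9% of the fixed-summit regions and in 65.2% of the others, with median gains of 41 and 59 bp. At 4 h they were longer in 50.8% of the fixed-summit regions and in 58.6% of the others, with median gains of 5 and 35 bp.

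The share of matched regions that were fixed differed by length and height. Among the regions more than 2 Mb from the longest peak-free stretch of their chromosome (defined below), 86 of 572 regions with a vehicle length of 300 to 400 bp and a vehicle height of 20 to 40 had a fixed summit (15%, Wilson 95% interval 12.3 to 18.2, counting error only). Of long and low regions, 600 to 1000 bp and a height of up to 10, 52 of 2893 did (1.80%, 1.37 to 2.35). At a height of 20 to 40 the share was highest at this length. It was 10.9% at 220 to 300 bp (31 of 285, interval 7.77 to 15), 10.9% at 400 to 600 bp, 6.53% at 600 to 1000 bp and 3.75% at 1000 to 1500 bp. At 300 to 400 bp and a height above 40 it was 18%, from 11 of only 61 regions (interval 10.4 to 29.5). By vehicle height the highest shares thus stood at 300 to 400 bp and heights above 20. At 220 to 300 bp and a height above 40 the share was 13.5% (5 of 37, interval 5.91 to 28). Ranked by GSK 24 h height, that class held the highest share, 23.6% (13 of 55, interval 14.4 to 36.3).

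The share with a fixed summit did not go on rising with vehicle height. In the same regions it was 3.04% at vehicle heights of up to 8, 4.74% at 8 to 16, 7.22% at 16 to 32 and 6.85% at 32 to 64. It then dropped to 2.37% (27 of 1139, interval 1.63 to 3.43) at 64 to 100 and to 1.19% (23 of 1934, interval 0.794 to 1.78) above 100. Very strong vehicle summits thus held their position least often. By GSK 24 h height the share rose throughout, from 2.75% at up to 8 through 4.16%, 6.04% and 6.68% to 7.98% at 64 to 100 (13 of 163, interval 4.72 to 13.2). By GSK 4 h height it was 6.20% at 16 to 32, 5.78% at 32 to 64 and 4.29% at 64 to 100. The highest pileup in the vehicle list was 442, which is 2 times the fragment length of 221 bp, and the part of such a ceiling in the low share was not tested.

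Between vehicle and the GSK lists the fixed-summit regions were lowered less often than matched regions at large, while their median ratios lay close to those of all matched regions. The median log2 ratio of GSK 4 h to vehicle height was 0.22 in the fixed-summit regions and 0.25 in all matched regions. The height was at least 1.5-fold lower at GSK 4 h in 155 (5.92%), beside 9.71% of all matched regions, and at least 1.5-fold higher in 575 (22%), beside 24.9%. From vehicle to GSK 24 h the median log2 ratio was 0.18, beside 0.16 in all matched regions. At 24 h, 113 fixed-summit regions (4.32%, interval 3.60 to 5.16) were at least 1.5-fold lower, beside 10.4% of all matched regions, and 382 (14.6%, interval 13.3 to 16) were at least 1.5-fold higher, beside 15.6%. Within 1.5-fold of vehicle at 24 h were 81.1% of the fixed-summit regions and 73.6% of the other matched regions. The 2 comparisons share the vehicle list. On this scale the higher calls lay near the background, whereas the lower calls were less frequent in the fixed-summit regions at both times. Membership required GSK summits close to the vehicle summit, so it is not independent of the GSK heights.

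Between the GSK lists the median log2 ratio of GSK 24 h to GSK 4 h was -0.034 in the fixed-summit regions and -0.14 in all matched regions. The height was at least 1.5-fold lower at 24 h than at 4 h in 392 (15%), beside 19.0% of all matched regions, and at least 1.5-fold higher in 277 (10.6%), beside 8.14%. The small positive medians against vehicle depend on the scaling. With each list scaled to its median over the matched regions, the medians were -0.093 for GSK 4 h to vehicle and -0.068 for GSK 24 h to vehicle, and 0.029 for GSK 24 h to GSK 4 h. The share at least 1.5-fold lower at GSK 24 h than vehicle was then 9.55%, beside 16.1% of all matched regions scaled the same way, and the share at least 1.5-fold higher 4.70%, beside 5.72%. The direction of these medians is therefore not settled by the lists.

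**Figure D2:**
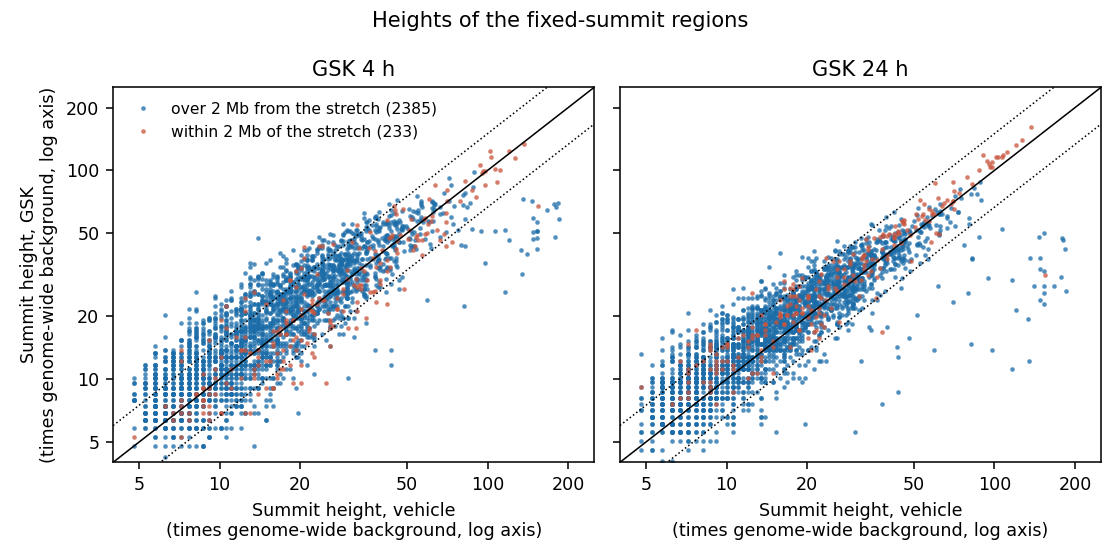
Summit height of the 2618 fixed-summit regions in the vehicle list (horizontal axis) and at GSK 4 h (left) or GSK 24 h (right, vertical axes), in multiples of the genome-wide background on log axes, each point 1 region. The solid line marks equal heights and the dotted lines 1.5-fold differences; most points lie between the dotted lines, and the 23 blue points (over 2 Mb from the longest peak-free stretch) at vehicle heights above 100 lie below the lower line in both panels, whereas 8 of the 9 red ones (within 2 Mb) lie above the solid line at GSK 24 h.

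The tallest fixed-summit regions of the vehicle list were lower in the GSK lists where they lay away from the longest peak-free stretch. The 9 as tall and within 2 Mb of it, of which 8 were higher at GSK 24 h, are described further on. Of the 23 regions above a vehicle height of 100 that lay more than 2 Mb from the longest peak-free stretch, all 23 were at least 2-fold lower at GSK 24 h and 22 at GSK 4 h. Their heights ran from 107 through a median of 148 to 184 in vehicle, from 26 through 51.0 to 73.3 at GSK 4 h and from 11.2 through 30.0 to 52.4 at GSK 24 h. No height of the GSK lists reached the lowest of the vehicle list, but the choice of regions by vehicle height set that floor. Vehicle height is also the base of the ratios given here. The median log2 ratio to vehicle was -1.55 at GSK 4 h and -2.32 at GSK 24 h. The 1911 other matched regions of the same height class fell in the same way, with 99.6% at least 1.5-fold lower at GSK 24 h and a median of -2.04. In this class a fixed summit position thus did not go with a kept height.

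The 3 fixed-summit regions with the highest vehicle summits show the size of this fall. At chr1:1534539-1535430 the pileup was 384 (346.5 to 424.4) in vehicle, 110 (90.4 to 132.6) at GSK 4 h and 52 (38.8 to 68.2) at GSK 24 h, which is a 6.97-fold lower height at 24 h. Its summits at bases 1534960, 1534962 and 1534939 nevertheless spanned only 23 bp. At chr16:25702917-25704288 the pileup was 382 (344.6 to 422.3), 132 (110.4 to 156.5) and 83 (66.1 to 102.9), a 4.34-fold lower height at 24 h. At chr9:101569540-101570536 it was 374 (337.1 to 413.9), 126 (105.0 to 150.0) and 91 (73.3 to 111.7), a 3.88-fold lower height at 24 h. These 3 regions were picked for their vehicle height, the base of the ratio, and this choice itself favours vehicle values above the GSK values. In each the vehicle interval lay above both GSK intervals, which is a description of pileups not scaled for depth.

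The deepest falls among fixed-summit regions with a vehicle height above the members' median were 7.13-fold to 11-fold. At chr4:121843128-121844197 the pileup was 281 (249.1 to 315.9) in vehicle, 60 (45.8 to 77.2) at GSK 4 h and 24 (15.4 to 35.7) at GSK 24 h, with summits within 13 bp and a log2 ratio of -3.47 at 24 h. At chr3:13696544-13697193 it was 243 (213.4 to 275.6), 49 (36.3 to 64.8) and 22 (13.8 to 33.3), with summits within 10 bp and a log2 ratio of -3.38. At chr11:14402534-14403364 it was 204 (177.0 to 234.0), 68 (52.8 to 86.2) and 27 (17.8 to 39.3), with summits within 22 bp and a log2 ratio of -2.83. These regions were picked for their ratio at 24 h, and each was also lower at 4 h.

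The 3 largest gains from vehicle to GSK 24 h, among regions with a GSK 24 h height above the members' median, were smaller. At chr11:61947292-61947646 the pileup was 15 (8.40 to 24.7) in vehicle, 23 (14.6 to 34.5) at GSK 4 h and 41 (29.4 to 55.6) at GSK 24 h, a 2.90-fold higher height at 24 h. At chr10:63798194-63798954 it was 22 (13.8 to 33.3), 21 (13.0 to 32.1) and 53 (39.7 to 69.3), so that the gain of 2.55-fold lay between 4 and 24 h. At chr12:56390173-56390813 it was 33 (22.7 to 46.3), 47 (34.5 to 62.5) and 79 (62.5 to 98.5), a 2.54-fold gain. These 3 regions were picked for their ratios, so their gains are a description.

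The smaller share of falls among the fixed-summit regions went with their scarcity among very strong vehicle summits. Away from the longest peak-free stretches, a vehicle pileup of 100 or more was found in 109 of 2385 fixed-summit regions (4.57%) and in 8.19% of all matched regions. When the matched regions more than 2 Mb from the longest peak-free stretch were ranked by GSK 4 h height, a list that takes no part in the ratio of GSK 24 h to vehicle, the top step of about 10% held 247 fixed-summit regions and 4527 others. At least 1.5-fold lower at GSK 24 h than vehicle were 28 of the 247 (11.3%, interval 7.96 to 15.9) and 47.2% of the others. With the regions limited to vehicle pileups under 100, the same step held 150 fixed-summit regions, of which 1 was lower (0.667%, interval 0.118 to 3.68), and 1926 others, of which 2.44% were (interval 1.84 to 3.23). The median log2 ratios were then 0.063 and 0.041. Below this pileup the falls were few in both sets and their intervals overlapped. The limit acts on the vehicle pileup, which is the base of the ratio. It thus takes out falls from tall vehicle summits by construction, in both sets. The part of scarce strong vehicle summits in the smaller share of falls was therefore not tested.

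**Figure D3:**
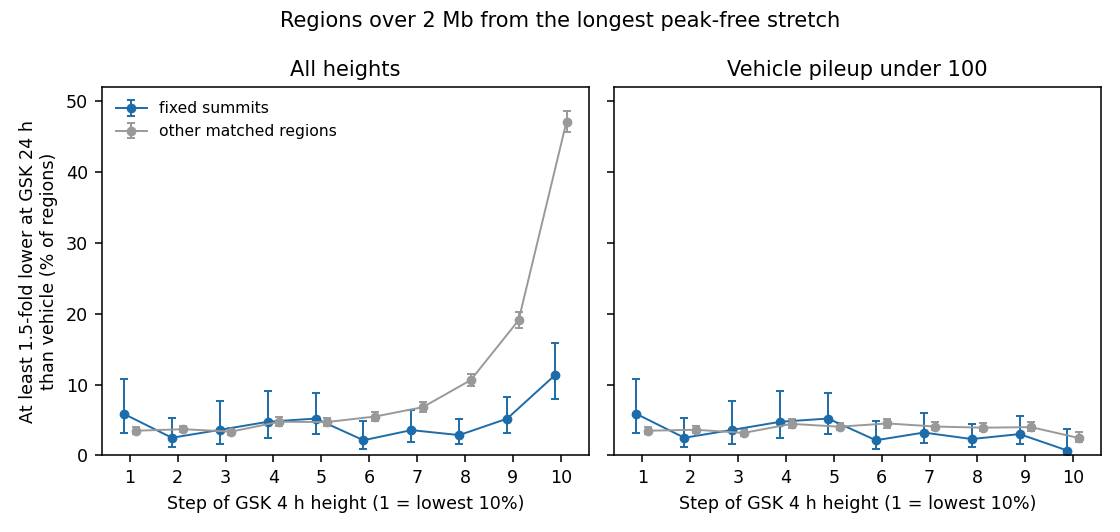
Percent of regions at least 1.5-fold lower at GSK 24 h than vehicle (vertical axis) in 10 steps of GSK 4 h height (horizontal axis), for fixed-summit regions in blue and other matched regions in grey, with Wilson 95% intervals (counting error only) and regions within 2 Mb of the longest peak-free stretch left out. In the top step the sets stand at 11.3% and 47.2% over all heights (left), and at 0.667% and 2.44% with vehicle pileups under 100 (right). The limit on the right acts on the base of the ratio and takes out falls from tall vehicle summits by construction.

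Within classes of strong vehicle summits a gap remained. At vehicle heights of 64 to 100, 9 of 27 fixed-summit regions were at least 1.5-fold lower at GSK 24 h (33.3%, interval 18.6 to 52.2), against 992 of 1112 others (89.2%, interval 87.2 to 90.9). At 32 to 64 the shares were 5.49% of 273 (interval 3.36 to 8.87) and 24.4% of 3710 (interval 23 to 25.8). At 16 to 32 they were 3.64% (interval 2.53 to 5.21) and 4.60% (interval 4.20 to 5.03), whose intervals overlap. Strong summits that kept their position were thus less often lowered at heights of 32 to 100, whereas above 100 the shares were 100% and 99.6%. These classes use the vehicle height, which is also the base of the ratio, so class and ratio are not independent in either set. Membership also rests on the GSK summits. The share with a fixed summit rose with GSK 24 h height, from 2.75% at up to 8 to 7.98% at 64 to 100. Membership and a low GSK 24 h height are therefore not independent, and the part of the rule in this gap was not tested.

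A second feature of the fixed-summit regions was where they lay. On each chromosome the longest stretch without a record in any list spans between 3.00 and 21.1 Mb, and is here called the longest peak-free stretch. No annotation of the files' genome build was used, so neither this stretch nor any region is assigned to a named feature or gene. Within 2 Mb of it lay 233 of the 2618 fixed-summit regions (8.90%). Seen the other way, 14.3% of the 1624 matched regions within 2 Mb had a fixed summit, against 4.81% of those farther away. The share rose toward the stretch, from 4.71% beyond 20 Mb to 8.27% (interval 6.5 to 10.5) at 1 to 2 Mb, 11.3% (interval 8.62 to 14.7) at 0.5 to 1 Mb and 27% (124 of 459, interval 23.2 to 31.3) within 0.5 Mb.

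**Figure D4:**
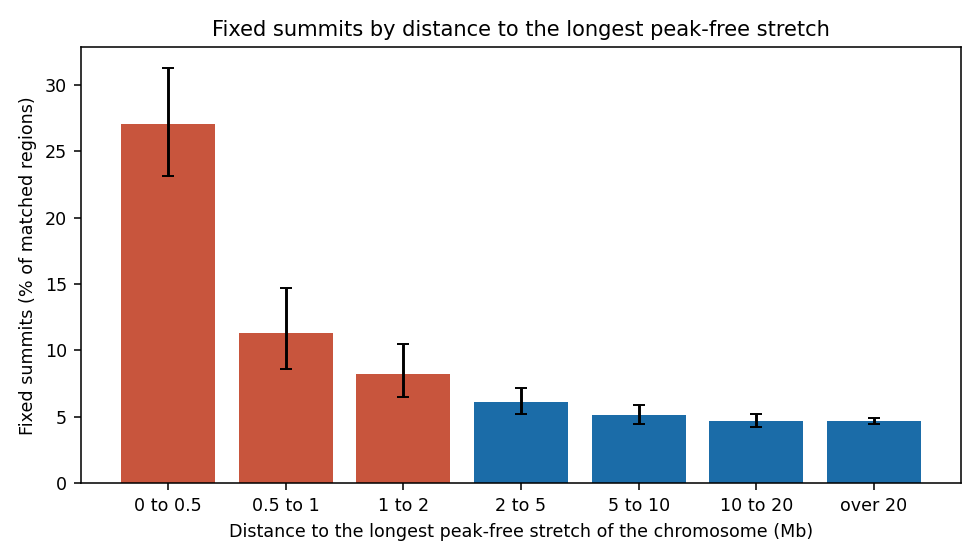
Percent of matched regions with a fixed summit (vertical axis) by distance to the longest peak-free stretch of the chromosome (horizontal axis, Mb), with Wilson 95% intervals (counting error only) and the classes within 2 Mb in red. The share is 27% within 0.5 Mb and stays between 4.71% and 6.13% in the classes beyond 2 Mb.

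The closest agreement of summits was concentrated there. Of the 189 regions with all summits within 5 bp, 65 lay within 2 Mb of the stretch (34.4%, interval 28 to 41.4). The share was 12.5% at distances of 6 to 10 bp, 6.57% at 11 to 15 bp and 4.69% at 21 to 25 bp. In matched regions beyond the limit it was 3.39% at 26 to 50 bp and between 2.56% and 3.00% at larger distances. Without the regions near the stretch, 2385 fixed-summit regions remained, and the share of matched regions that were fixed ran from 3.19% on chromosome 13 to 5.65% on chromosome 4.

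The fixed-summit regions near the stretch differed from those elsewhere in shape and surroundings. Their median height was 22.6 in vehicle, 22.3 at GSK 4 h and 26.5 at GSK 24 h, against 14.9, 18.1 and 17.3 for the fixed-summit regions farther away. They were shorter, with a median of 394 bp in vehicle, 327 bp at GSK 4 h and 403 bp at GSK 24 h, against 481, 518 and 575 bp. Their surroundings were richer in tags: the local background that the caller used, in multiples of the genome-wide one, had a median of 3.40 in vehicle, 2.82 at GSK 4 h and 4.27 at GSK 24 h, and reached 65.9, 51.4 and 76.0. Farther away its median was 1.76, 1.98 and 2.07. Against this local background the order was reversed. The authors' fold enrichment had medians of 4.91 in vehicle, 5.50 at GSK 4 h and 4.94 at GSK 24 h near the stretch, against 5.84, 6.41 and 6.10 farther away.

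Near the stretch the fixed-summit regions were rarely lower at GSK 24 h, but not at GSK 4 h. At 24 h 3 of the 233 were at least 1.5-fold lower at GSK 24 h (1.29%, interval 0.439 to 3.72), against 110 of the 2385 farther away (4.61%, interval 3.84 to 5.53) and 11.6% of the other matched regions near the stretch (interval 10.1 to 13.4). At 4 h 28 were (12%, interval 8.45 to 16.8), against 5.32% of the fixed-summit regions farther away and 10.9% of the other matched regions near the stretch. At 24 h 19 were at least 1.5-fold higher (8.15%, interval 5.28 to 12.4), beside 15.6% of all matched regions. The share was 15.2% in the fixed-summit regions farther away and 11.9% in the other matched regions near the stretch (interval 10.3 to 13.7). From vehicle to GSK 24 h the start moved by a median of 14 bp and the end by 19 bp, against 50 and 53 bp farther away. The median log2 ratio of GSK 24 h to vehicle was 0.20. That of GSK 4 h to vehicle was -0.11, where the fixed-summit regions farther away had 0.25. The records of these 233 regions were a median of 51 bp shorter at GSK 4 h than in vehicle. Those of the other matched regions near the stretch were a median of 18 bp longer, and those of the fixed-summit regions farther away 13 bp longer. The fragment length of the GSK 4 h list, which all of them share, was shorter than that of vehicle. The part of fragment length in these shifts was not tested.

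Part of the near-stretch regions came in runs. Matched regions within 2 Mb of a stretch were chained where their summits lay no more than 50 kb apart, and 14 chains on 10 chromosomes held at least 5 fixed-summit regions each. Together they held 100 of the 233 (42.9%), and 100 of the 179 matched regions in these chains were fixed (55.9%). The chains were chosen for their count of fixed-summit regions, which raises this share by construction. Over all 1624 matched regions within 2 Mb it was 14.3%. The run with the most fixed summits, between 42360566 and 42428931 on chromosome 10, held 12 among 19 matched regions. Its vehicle heights ran from 9.12 to 126 and its GSK 24 h heights from 12.2 to 139.9. The local background in it reached 65.9 times the genome-wide one in vehicle and 76.0 times at GSK 24 h. A run between 33872806 and 34022952 on chromosome 16 held 11 of 21, and one between 49098680 and 49163172 on chromosome 4 held 11 of 28. Regions of a run share their neighbourhood and are not independent of each other.

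On chromosome 11 all 8 matched regions of a chain between 51579439 and 51593284 were fixed, with summits within 2 to 15 bp. The run was singled out after its values were seen. The first and second vehicle summits, at bases 51579626 and 51580829, lay 1203 bp apart. The 6 following distances ran from 1975 to 2118 bp in vehicle, from 1980 to 2113 bp at GSK 4 h and from 1977 to 2119 bp at GSK 24 h, with medians of 2047.5, 2049.5 and 2045.5 bp. The 5 inner summits stood higher than the 3 outer ones in every list. The local background in this run reached 22.9 times the genome-wide one in vehicle, 22.4 times at GSK 4 h and 26.6 times at GSK 24 h. The tallest vehicle summit, at base 51586898, had pileups of 215 in vehicle, 218 at GSK 4 h and 228 at GSK 24 h, and the lowest, at base 51579626, had 92, 92 and 99. The agreement of the distances between lists follows from how the regions were chosen.

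**Figure D5:**
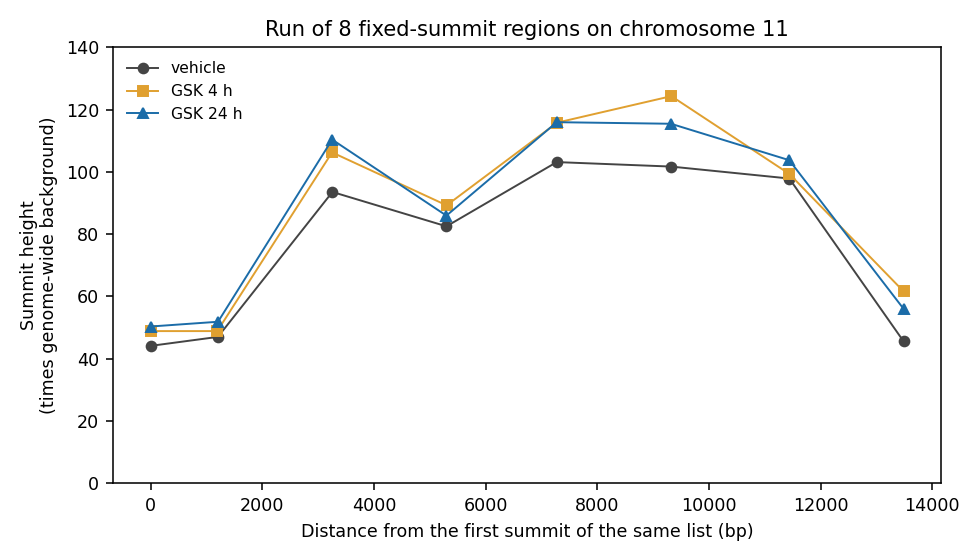
Summit height in multiples of the genome-wide background (vertical axis) against distance from the first summit of the same list (horizontal axis, bp) for the 8 fixed-summit regions of the run on chromosome 11, each point 1 summit and each line 1 list. After the first step the summits are 1975 to 2119 bp apart, and the 5 inner summits stand above 80 in all lists.

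Fixed-summit regions that were very tall over the genome-wide background in all 3 lists were mostly near a stretch. These heights take no account of the local background. As given above, that background was higher near the stretch, and the fold enrichment of the fixed-summit regions there was lower than farther away. A height of at least 80 in all 3 lists was reached by 43 matched regions, of which 16 had fixed summits, 15 of them near a stretch and 1 farther away, and of the others 14 were near and 13 farther away. The exception, chr16:2582108-2583176, had heights of 88.3 in vehicle, 83.4 at GSK 4 h and 87.5 at GSK 24 h. Of the 9 near-stretch fixed-summit regions above a vehicle height of 100, 8 were higher at GSK 24 h, with heights from 115 to 161. The ninth, chr17:21219832-21220578, had heights of 154, 67.5 and 31.5, like the tall regions farther away. None of the 23 tall regions farther away was higher at GSK 24 h, and their highest GSK 24 h height, 52.4, lay below those of all 8.

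The fixed-summit regions had another summit of the same list close by more often than the other matched regions. The nearest other summit lay within 1 kb for 20.7% (interval 19.2 to 22.3) in vehicle, 24.4% (interval 22.8 to 26.1) at GSK 4 h and 22% (interval 20.4 to 23.6) at GSK 24 h, against 16.3%, 20.3% and 18.7% of the others. Without the near-stretch regions the share was 20% (interval 18.4 to 21.7) in vehicle, 24.3% at GSK 4 h and 21.3% at GSK 24 h, against 16.3%, 20.4% and 18.7% of the other matched regions. The shorter records given above go with these shares, and the part of length in them was not tested.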

How the data were processed

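Per group, the authors deposited a single narrowPeak list, which the series' design text says comes from both replicates. How they were combined is not given in the sources used here. Per the labels' processing notes, BWA 0.7.2-r351, SAMtools 0.1.18, MACS2 2.0.10.20131216 and the build hg19 (GRCh37) were used, with no roles or settings given. Libraries were made with the ThruPLEX DNA-seq kit. A deposited record holds positions, the fold enrichment of the summit (a ratio to background), the score for display, and p-value and q-value on the −log10 scale. None of these is normalised between lists.

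Whole-number pileups were recovered from the authors' fold and −log10 p-value, taking the fold as (pileup + 1)/(background + 1) and the p-value as the Poisson chance of exceeding the pileup, within 0.001. This failed for 2 vehicle records, neither a fixed-summit region. The lowest background of a list was taken as the genome-wide one. This step and the matching were tested on simulated data. Records on chromosomes 1 to 22 were merged at an overlap of at least 1 bp with Python 3.11.15, numpy 2.4.6, pandas 2.3.3 and scipy 1.17.1. Intervals are Wilson 95% intervals for shares and exact Poisson intervals for pileups, and cover counting error only. With 1 list per group, no test between groups was run.

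The members, the rules and the comparisons were chosen with earlier results of these data known, and the 2 Mb window after the distances had been seen. Named regions are the 3 with the highest vehicle height, the 3 with the lowest and the 3 with the highest ratio of GSK 24 h to vehicle among those above the median height (in vehicle and at GSK 24 h, respectively), and the 3 with the closest summits (ties: highest summed height); others were named after their values were seen. Alternatives were other summit limits, no length limit, stronger records, chromosome X, wider merging, the authors' fold, another scaling, pileups under 100 and other windows. Gene assignment, start sites and sequence were not analysed here, since positions of the build hg19 were not matched to the reference tables used. No per-sample columns of other series were present (0 columns).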

Additional observations from a re-analysis of the deposited data

Results flagged for a closer look

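The report covers chromosomes 1 to 22, and the same rule also found fixed summits on sequences outside it. On chromosome X, 58 of 1239 matched regions had a fixed summit (4.68%, Wilson 95% interval 3.64 to 6.0), close to the share on the numbered chromosomes. On chromosome Y, 44 of 196 did (22.4%, interval 17.2 to 28.8), with median heights of 21.1 in vehicle, 19.9 at GSK 4 h and 23.4 at GSK 24 h. On haplotype, unplaced and unlocalised sequences, 74 of 575 did (12.9%, interval 10.4 to 15.9), with median heights of 26.1, 29.0 and 28. The last 2 intervals lie above the 5.11% of the numbered chromosomes. On the mitochondrial genome 0 of 4 did, which is too few to read. No replicate or control list stands behind these counts.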

How the results depend on the processing

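No paired analysis was possible because each group has 1 list that pools its replicates, so values without a given replicate do not exist either. Values near start sites and sequence features were planned and not run, since no genome of the files' build was used. Counting depth limits regions with pileups near 10. For the values below the cause of the change was not tested beyond the construction of each alternative. For stronger records, wider merging and pileups under 100, shares over all matched regions are not given. The lower and higher shares there have no background beside them.

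The share lower at GSK 24 h in the top step of GSK 4 h height is here taken over all fixed-summit regions, near-stretch ones included, and was 9.35% at the settings of the report.

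With summits within 10 bp, 1.20% of matched regions were fixed. In these the median log2 ratio was 0.15 for GSK 4 h to vehicle and turned to 0.044 for GSK 24 h to GSK 4 h. At GSK 4 h 7.82% were at least 1.5-fold lower and 17.9% higher than vehicle, beside 9.71% and 24.9% of all matched regions. At GSK 24 h 3.42% were lower (5.15% in the top step of GSK 4 h height), beside 10.4%. Of these regions 19.2% lay within 2 Mb of the longest peak-free stretch, where 7.27% of matched regions were fixed. With summits within 50 bp, 14.9% of matched regions were fixed, the median log2 ratio of GSK 4 h to vehicle was 0.25, 5.28% lay near the stretch and 24.8% of matched regions there were fixed. With no length limit 5.04% of matched regions were fixed, and with chromosome X 5.10%, and the other values moved as little.

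With only records of a −log10 q-value of at least 10, 6.29% were fixed, with a median vehicle length of 645 bp. The median log2 ratio of GSK 24 h to vehicle was 0.13, 4.14% were lower and 18.2% higher at GSK 4 h, 9.21% were higher at GSK 24 h, and 18.4% of matched regions near the stretch were fixed. With records within 1 kb merged, 4.73% were fixed, with a median vehicle length of 507 bp. The median log2 ratio was 0.14 for GSK 24 h to vehicle and -0.10 for GSK 24 h to GSK 4 h, 6.49% were lower at GSK 24 h (14.4% in the top step), and 11.9% of matched regions near the stretch were fixed.

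By the authors' fold enrichment in place of height, the median log2 ratios were 0.098 (GSK 4 h to vehicle), 0.015 (GSK 24 h to vehicle) and -0.072 (GSK 24 h to GSK 4 h). At GSK 4 h 4.43% were lower and 10.5% higher, beside 7.46% and 10.8% of all matched regions by the same measure. At GSK 24 h 3.51% were lower (4.26% in the top step) and 6.15% higher, beside 8.37% and 5.98%. The higher calls thus lay near the background. With each list scaled to its median over matched regions, all 3 medians changed sign, to -0.093, -0.068 and 0.029. At GSK 4 h 16% were then lower and 7.33% higher (17.8% and 8.28% of all matched regions). At GSK 24 h 9.55% were lower (17.7% in the top step) and 4.70% higher, beside 16.1% and 5.72% of all matched regions. With vehicle pileups under 100 the medians against vehicle were 0.25 at GSK 4 h and 0.20 at GSK 24 h, 4.88% were lower at GSK 4 h, and 3.05% were lower at GSK 24 h (0.595% in the top step).

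Alternatives chosen after seeing the data gave the following. Without the regions within 2 Mb of the stretch, 4.81% of matched regions were fixed and the median log2 ratio of GSK 4 h to vehicle was 0.25. Within 1 Mb lay 6.53% of the fixed-summit regions, and 19.6% of matched regions there were fixed. Within 5 Mb lay 14.3% of them, and 9.52% of matched regions there were fixed.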
